A study of Capra hircus with 4 samples.

Results

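Vascular endothelial growth factor (VEGF) signalling was followed across the cell classes of the goat ovary through 8 genes: the ligands VEGFA, VEGFB and VEGFC, the receptors FLT1, KDR and FLT4, and the neuropilins NRP1 and NRP2. The genes were taken by symbol from the deposited count matrices, and all 8 were found among the 28944 genes of each matrix. Over all deposited nuclei they held from 3911 UMIs (unique molecular identifiers, each tagging 1 captured RNA molecule) for FLT1 to 102805 for NRP1.

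VEGF ligands are secreted proteins that bind receptor tyrosine kinases on the surface of endothelial cells. VEGFA binds FLT1 and KDR and drives the growth and permeability of blood vessels, VEGFB binds FLT1, and VEGFC binds FLT4 and KDR and drives the growth of lymphatic vessels. FLT1 holds its ligands tightly and also occurs as a soluble trap, KDR carries most of the growth signal in blood vessels, and FLT4 is the receptor of lymphatic endothelium. Neuropilins bind VEGF ligands beside these receptors and also bind class 3 semaphorins, which are guidance proteins. In the ovary, VEGFA from growing follicles is known for building the capillary net of the theca layer, while the granulosa layer stays free of vessels until ovulation.

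The data were single-nucleus RNA libraries from the ovaries of 4 goats about 3 years old, 2 Nubian goats of a polytocous group (litter size 3) and 2 Du'an goats of a monotocous group (litter size 1). Every goat carried a vaginal device with 300 mg progesterone for 17 days to bring estrus into step, and each gave 1 library. Breed and litter size were therefore changed together, and with 2 goats a breed neither can be told apart from differences between single animals. Of 48332 deposited nuclei, 44734 passed the filters, with 8723 to 15848 in a goat, and the libraries held 40573246 to 71613892 UMIs. Pairs of libraries shared 54 to 131 cell barcodes, at most 1.4% of the smaller library.

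Nuclei were clustered without the 8 genes, the marker genes or the pathway genes among the clustering genes, and clusters were named "-like" from marker lists. In all, 14 named classes were obtained, and 10016 nuclei (22.4%) stayed unnamed. No cluster took the name of oocytes or of stromal cells. In smooth muscle-like nuclei the 8 smooth muscle markers summed to 2133 to 3522 CPM (UMIs per 1000000 UMIs). The 7 stromal markers summed to 4564 to 5609 CPM there, a range also seen in theca-like (4410 to 6476 CPM) and fibroblast-like nuclei (4515 to 7160 CPM). The smooth muscle-like class may thus hold stromal nuclei, and their part in its levels was not tested. The goats did not fill the classes evenly: mural granulosa-like nuclei numbered 0, 1481, 4474 and 425 (Du'an replicate 1, Du'an replicate 2, Nubian replicate 1, Nubian replicate 2), fibroblast-like nuclei 20, 41, 497 and 9, and T or natural killer-like nuclei 120, 1609, 419 and 326. The endothelial classes were present in every goat, with 484, 584, 566 and 179 blood and 368, 449, 600 and 140 lymphatic endothelial-like nuclei. Their summed marker levels kept them apart, with the 7 lymphatic markers at 7313 to 13930 CPM (UMIs of the genes per 1000000 UMIs) in the lymphatic class against 178 to 278 CPM in the blood class. The 11 blood endothelial markers were at 4631 to 6112 CPM in the blood class and at 2396 to 2647 CPM in the lymphatic class, and the sums held UMIs of all 11 in each of these classes. Over goats the lymphatic marker NTS was 1.47 CPM in the lymphatic and 2.95 CPM in the blood class. The blood marker EGFL7 was 385 and 325 CPM, and the other markers were higher in their own class.

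Levels are CPM, the UMIs of a gene per 1000000 UMIs summed over the nuclei of 1 class in 1 goat, for the 52 sums with at least 20 nuclei. Where 4 values stand in a row, the goats come in the order just given. Since the libraries read the 3′ ends of transcripts, levels are compared between classes and not between genes. A class was tested against the mean of the 13 other named classes with edgeR (quasi-likelihood test, goat as a block). Log2 changes are given with an approximate standard error and a Benjamini-Hochberg adjusted p. This standard error is the size of the log2 change divided by the square root of the F statistic of the test. Of 14899 genes that passed the filter on low counts, 11656 were tested, since a gene without a UMI in 1 of the classes, or in 1 goat, has no finite mean over classes on the log scale. The classes and the levels came from the same nuclei, so these p-values also carry the choice of classes, and a gene with 1 very high class comes out lower in the others. FLT4, though kept out of the clustering, was nonetheless among the 10 leading genes of the lymphatic cluster. The median log2 change of all genes tested was -0.17 in pericyte-like and -0.12 in epithelial-like nuclei, and within 0.1 of 0 in the other classes.

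All 8 genes passed the filter on low counts, and 7 could be tested, FLT4 being without a UMI in pericyte-like and multiciliated-like nuclei. Of the 98 class contrasts of the 7 genes, 44 were called at an adjusted p under 0.05, 24 higher and 20 lower. The share over all genes was 33.7% in either direction and 18.8% higher. Of the 44 calls, 22 were kept under every alternative processing in which they could be tested. For the others, the losses named below are not always all that occurred. Among these 22, the higher levels were those of FLT1 in blood endothelial-like and pericyte-like nuclei, KDR in both endothelial classes, NRP1 in theca-like, mural and progenitor granulosa-like nuclei, NRP2 in progenitor granulosa-like, lymphatic endothelial-like, smooth muscle-like and macrophage-like nuclei, VEGFB in macrophage-like and smooth muscle-like nuclei and VEGFC in mural granulosa-like and blood endothelial-like nuclei. The lower levels were those of FLT1, NRP2 and VEGFC in T or natural killer-like, KDR in macrophage-like, NRP1 in lymphatic endothelial-like and NRP2 in epithelial-like and multiciliated-like nuclei.

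**Figure D1:**
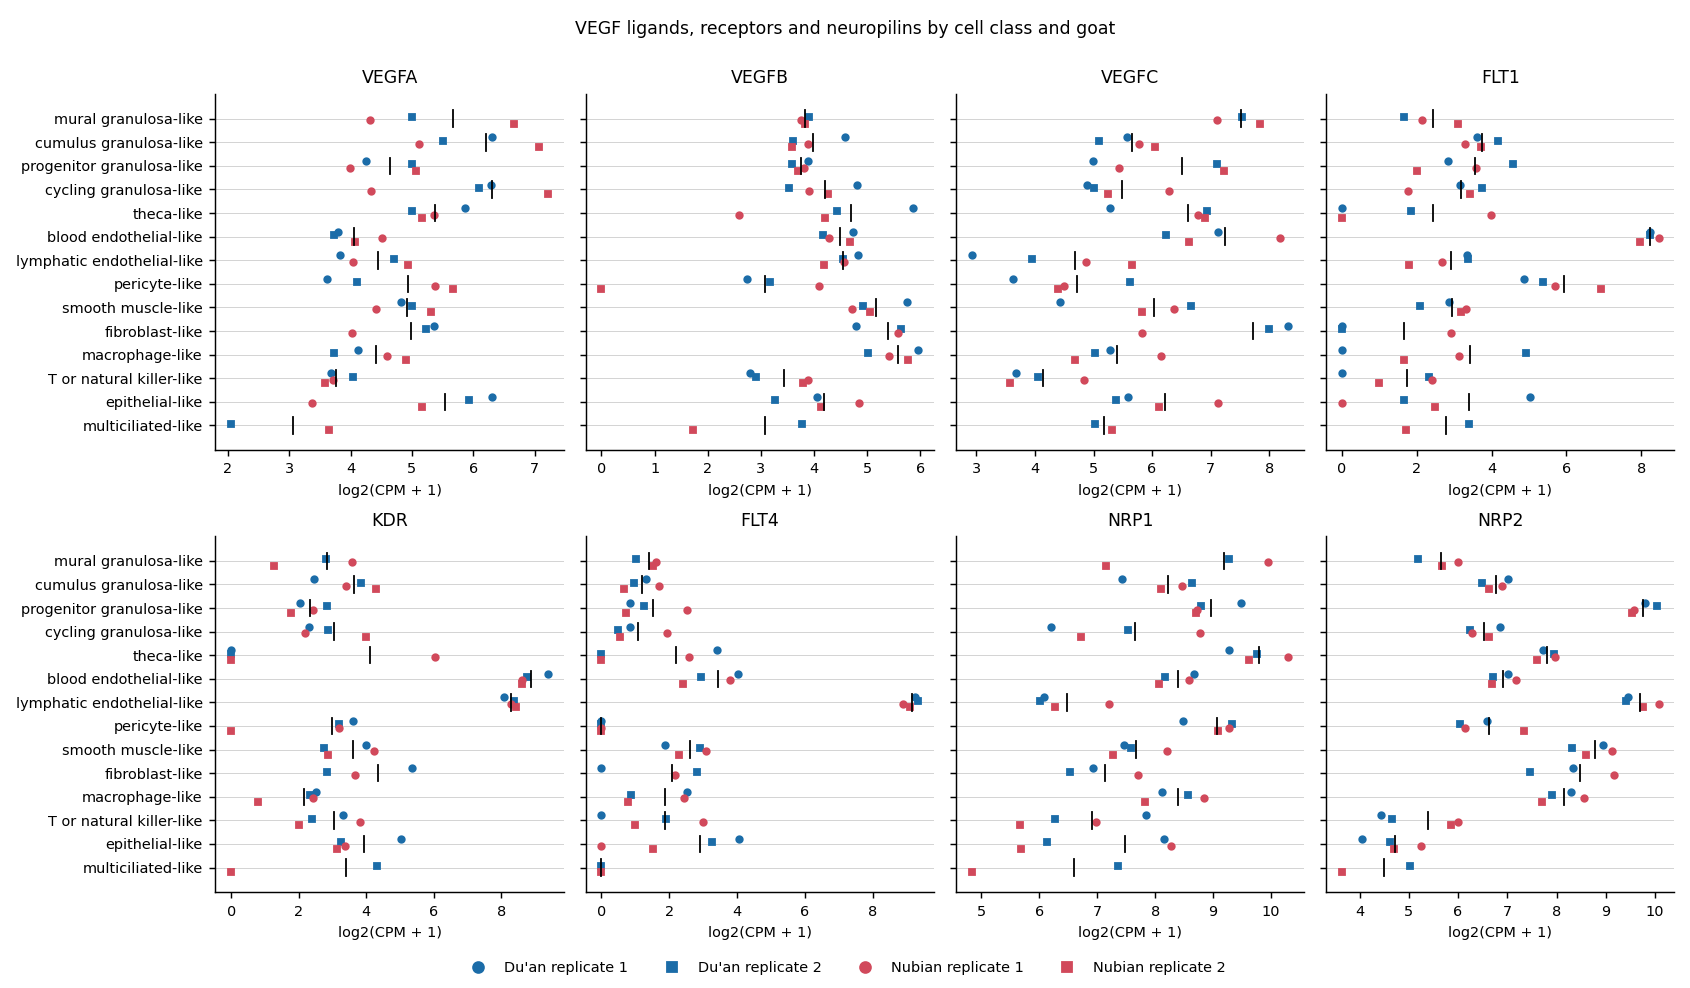
Levels of the 8 genes as log2(CPM + 1) (x axis, with its own range in each panel) in each of the 14 named classes (y axis), with 1 point per goat and class sum of at least 20 nuclei and a black tick at the mean over goats. FLT1, KDR and FLT4 stand apart in 1 or 2 endothelial classes, while the ligands and neuropilins are spread over many classes.

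VEGFA, the main growth factor of blood vessels, was highest in dividing and cumulus granulosa-like nuclei. Its level was 78.5, 44.3, 33.8 and 134 CPM in cumulus granulosa-like and 77.6, 67.6, 19.2 and 148 CPM in cycling granulosa-like nuclei. Mural granulosa-like nuclei, absent in Du'an replicate 1, had 31.1, 18.9 and 100.1 CPM. In all 3 classes Nubian replicate 2 was highest and Nubian replicate 1 lowest, so the 2 Nubian goats were the extremes. Against the mean of the other classes VEGFA was higher by 1.54 ± 0.23 in cycling (adjusted p = 1.79e-07), 1.53 ± 0.22 in cumulus (1.18e-07) and 0.92 ± 0.26 in mural granulosa-like nuclei (0.00359) on the log2 scale. When nuclei were instead classed singly from marker UMIs, the cumulus value became -0.27 (adjusted p = 0.76) and the cycling value 0.66 (0.16). The mural call was lost without Nubian replicate 2 (0.43, 0.31) and with DESeq2 (0.71, 0.068).

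Below these classes VEGFA stood at a mean of 45.7 ± 30.1 CPM (SD, n = 4) in epithelial-like and 40.8 ± 11.5 CPM in theca-like nuclei. Progenitor granulosa-like nuclei had 18.1, 31.0, 14.9 and 32.4 CPM. The endothelial classes were low, with 12.9, 12.3, 21.8 and 15.9 CPM in blood and 13.1, 25.1, 15.4 and 29.7 CPM in lymphatic endothelial-like nuclei. From class to class down the order of means, the ranges over goats of neighbouring classes overlapped at every step. VEGFA was called lower in T or natural killer-like nuclei (12.6 ± 1.96 CPM) and multiciliated-like nuclei (3.16 and 11.5 CPM in the 2 goats with enough nuclei), and both calls were lost without Nubian replicate 2 (-0.67, 0.13, and -3.15, 0.10). The multiciliated call was also lost without Du'an replicate 2 (-1.63, 0.21).

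VEGFB, a ligand of FLT1, had its highest mean in macrophage-like nuclei, with 61.3, 31.4, 41.7 and 53.8 CPM. Fibroblast-like nuclei followed with 26.7, 48.6 and 47.1 CPM in the 3 goats with at least 20 such nuclei, from 2, 8 and 80 UMIs. Smooth muscle-like nuclei had 52.6, 29.4, 25.2 and 32.3 CPM. These 3 classes overlapped each other over goats and were called higher, by 1.42 ± 0.19 (adjusted p = 1.38e-08), 1.29 ± 0.28 (0.000589) and 0.85 ± 0.18 (0.00035). The fibroblast call rested on Nubian replicate 1, which held 497 of the nuclei, and without it the log2 change was 1.07 with an adjusted p of 0.21. VEGFB varied least over the classes of the 3 ligands: every class mean lay between 7.46 and 47.0 CPM. Mural and progenitor granulosa-like nuclei had means of 13.2 ± 0.77 (n = 3) and 12.5 ± 1.2 CPM (n = 4), and neither was called. VEGFB was lower in T or natural killer-like nuclei (-0.86 ± 0.26, adjusted p = 0.0036), a call lost without Du'an replicate 2 (-0.47, 0.25).

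VEGFC, the lymphatic growth factor, was high in mural granulosa-like nuclei, with 185, 137 and 228 CPM in the 3 goats that had the class. Blood endothelial-like nuclei had 139, 74.9, 291 and 98.1 CPM. Fibroblast-like nuclei had 320, 255 and 56.0 CPM from 24, 42 and 95 UMIs. The fibroblast-like class joined clusters 18 and 24, which these goats filled differently. Cluster 18 held 12, 9 and 493 of their nuclei and cluster 24 held 8, 32 and 4. The part of this mix in the VEGFC levels was not tested. The contrasts were 1.91 ± 0.31 (adjusted p = 1.73e-06) in mural granulosa-like, 1.48 ± 0.30 (9.74e-05) in blood endothelial-like and 1.67 ± 0.46 (0.00782) in fibroblast-like nuclei. The fibroblast call was lost without Du'an replicate 1 (1.09, 0.18) or Du'an replicate 2 (1.27, 0.22), and its value turned to -0.32 (adjusted p = 0.84) when sums of at least 50 nuclei were asked for, which left Nubian replicate 1 alone in that class. VEGFC was also called higher in progenitor granulosa-like nuclei (0.78 ± 0.31, adjusted p = 0.0419). The goats there split into 30.8 and 42.1 CPM in the first and 137 and 149 CPM in the second replicate of each breed. This call was kept in only 6 of the 15 alternatives in which it could be tested. Its losses included those without Du'an replicate 2 (0.50, 0.31) and without Nubian replicate 2 (0.48, 0.38).

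Lymphatic endothelial-like nuclei, whose receptor FLT4 binds VEGFC, were themselves low in it, with 6.57, 14.4, 28.1 and 49.5 CPM. The contrast was -1.5 ± 0.43 (adjusted p = 0.00562), and -1.25 without Du'an replicate 2 (0.064). T or natural killer-like nuclei had the lowest mean of all classes, 16.5 ± 7.70 CPM, and a contrast of -1.93 ± 0.44 (adjusted p = 0.000223).

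FLT1, the receptor of VEGFA and VEGFB, stood far higher in blood endothelial-like nuclei than in the other named classes, at 299.5, 302, 352 and 248 CPM. No other of the 48 class sums reached 248 CPM, and the next was 120.2 CPM in pericyte-like nuclei of Nubian replicate 2. The contrast was 5.36 ± 0.25 on the log2 scale (adjusted p = 2.34e-23). Pericyte-like nuclei, named for the contractile cells around small vessels, were second among the named classes. They had 28.2, 40.3, 51.1 and 120.2 CPM, from only 5, 5, 19 and 12 UMIs, and their 4 sums lay apart from the blood endothelial range. Of the clusters without a name, cluster 16 had 79.0 to 168 CPM in the single goats and cluster 12 had 11.5 to 254 CPM. FLT1 was called higher in pericyte-like nuclei by 2.59 ± 0.52 (adjusted p = 0.000237).

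Blood endothelial RNA in the pericyte-like class was measured beside this value. Of the 11 blood endothelial markers, PLVAP and BTNL9 had 0 UMIs in pericyte-like nuclei. Over goats these were low in blood endothelial-like nuclei too, at 7.19 and 7.55 CPM. ERG was 103 CPM in pericyte-like, 41.9 CPM in smooth muscle-like and 741 CPM in blood endothelial-like nuclei. EMCN was 49.1, 90.6 and 838 CPM in the same order. The list summed to 90.2 to 298 CPM in pericyte-like nuclei, against 146 to 255 CPM in smooth muscle-like nuclei. FLT1 was 6.29, 3.27, 9.03 and 8.07 CPM in smooth muscle-like nuclei. KDR, abundant in the same endothelial nuclei, was 11.3, 8.06, 8.06 and 0 CPM in pericyte-like nuclei. The pericyte list itself summed to 693 to 1016 CPM with STEAP4 at 0 and KCNJ8 at 5 UMIs. In the same nuclei the 8 smooth muscle markers summed to 2040 to 3426 CPM, near the 2133 to 3522 CPM of smooth muscle-like nuclei. The pericyte-like class may thus hold smooth muscle nuclei, and their part in its levels was not tested. The part of endothelial RNA in the FLT1 level of pericyte-like nuclei was not tested. In every other named class the mean FLT1 level was at most 12.3 CPM, and lymphatic endothelial-like nuclei had 9.19, 9.34, 5.44 and 2.48 CPM. FLT1 was called lower in T or natural killer-like (-1.85 ± 0.59, adjusted p = 0.0063) and mural granulosa-like nuclei (-1.24 ± 0.47, 0.031). The mural call was kept in 8 of the 13 alternatives in which it could be tested. Its losses included those without Du'an replicate 1 (-1.19, 0.052) and without Du'an replicate 2 (-0.62, 0.38).

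KDR, the main signalling receptor for VEGFA, was high in both endothelial classes. It stood at 663.5, 428, 388 and 390 CPM in blood and 271, 327, 311 and 342 CPM in lymphatic endothelial-like nuclei. Each blood value lay above every lymphatic value, and the highest sum of any other class was 64.9 CPM, in theca-like nuclei of Nubian replicate 1 (13 UMIs), while the other 3 theca sums held 0. Against the mean of the other classes KDR was higher by 5.46 ± 0.25 in blood (adjusted p = 1.16e-23) and 4.87 ± 0.26 in lymphatic endothelial-like nuclei (3.15e-21). Granulosa-like classes were low, with means of 11.5 ± 6.0 CPM in cumulus, 7.16 ± 5.28 in cycling, 6.09 ± 4.71 in mural and 4.02 ± 1.67 in progenitor nuclei. KDR was called lower in macrophage-like (-2.18 ± 0.60, adjusted p = 0.00182), progenitor granulosa-like (-1.94 ± 0.47, 0.000916) and T or natural killer-like nuclei (-1.18 ± 0.52, 0.0453). The T or natural killer call was kept in 7 of the 13 alternatives in which it could be tested. Its losses included the one without Nubian replicate 2 (-1.08, 0.054). The progenitor call was lost when nuclei were classed singly from marker UMIs (-0.90, 0.15), at the clustering resolution of 1.2 (-1.03, 0.059) and with cluster 4, unnamed, joined to the class (-0.96, 0.062). Without Du'an replicate 2 or Nubian replicate 1, KDR had no UMI in a class and could not be tested.

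FLT4, the VEGFC receptor, marked 1 class. Lymphatic endothelial-like nuclei had 607, 645, 470.4 and 547 CPM, and the highest of the 48 other sums was 15.7 CPM, from 1 UMI in epithelial-like nuclei of Du'an replicate 1. Pericyte-like and multiciliated-like nuclei held 0 FLT4 UMIs, which allows levels up to 3.88 and 3.99 CPM over their goats. Blood endothelial-like nuclei had 15.2, 6.67, 13 and 4.33 CPM from 20, 13, 19 and 3 UMIs, a range that overlapped epithelial-like and smooth muscle-like nuclei. With pericyte-like and multiciliated-like nuclei left out, an alternative chosen after the data were seen, FLT4 could be tested and was higher in lymphatic (7.93 ± 0.18, adjusted p = 8.00e-32) and blood endothelial-like nuclei (1.36 ± 0.34, 0.00147). It was lower in the 4 granulosa classes, from -1.70 ± 0.36 in cumulus (0.000194) to -1.33 ± 0.40 in mural nuclei (0.0061), where 37.2% of the contrasts of all genes were called.

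NRP1, a co-receptor for VEGFA, was spread over most classes with a peak in theca-like nuclei, the steroid-producing cells of the follicle outside its granulosa layer. Theca-like nuclei had 619, 860, 1257 and 789 CPM. Pericyte-like nuclei had 355, 637, 618 and 541 CPM and progenitor granulosa-like nuclei 715, 441, 420 and 414 CPM. Mural granulosa-like nuclei differed widely between goats, with 617, 990 and 141 CPM. All 4 classes were called higher, theca-like by 1.78 ± 0.25 (adjusted p = 4.06e-07), mural by 1.4 ± 0.28 (7.33e-05), progenitor by 1.35 ± 0.25 (2.54e-05) and pericyte-like by 1.06 ± 0.29 (0.00833). The pericyte call ended without Du'an replicate 2 (1.02, 0.058), without Nubian replicate 2 (0.81, 0.096) and without the goat block (1.0, 0.053).

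Blood endothelial-like nuclei, at 407, 286, 383 and 268 CPM, and macrophage-like nuclei, at 276, 378, 456 and 225 CPM, came next for NRP1 and were not called. Lymphatic endothelial-like nuclei had the lowest mean of all classes, with 67.0, 63.9, 146 and 76.7 CPM, and a contrast of -1.61 ± 0.34 (adjusted p = 0.000199). T or natural killer-like nuclei were also called lower (-1.20 ± 0.33, 0.0019), though not without Du'an replicate 2 (-0.90, 0.055). The lower calls in epithelial-like (-1.18 ± 0.37, 0.0131) and fibroblast-like nuclei (-1.25 ± 0.42, 0.0324) were lost without Du'an replicate 2 (-0.82, 0.18, and -1.01, 0.24). The first was also lost without Nubian replicate 2 (-1.0, 0.093), and the second without Du'an replicate 1 (-1.12, 0.073) or Nubian replicate 1 (-1.56, 0.076). Where it could be tested, the epithelial call was kept in 12 of 15 alternatives and the fibroblast call in only 5 of 14. Levels of NRP1 in neighbouring classes of the order overlapped over goats, apart from progenitor granulosa-like against blood endothelial-like nuclei.

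NRP2, a co-receptor for VEGFC, had 2 separate peaks. Progenitor granulosa-like nuclei had 891, 1044, 761 and 736 CPM, and lymphatic endothelial-like nuclei 703, 679, 1074 and 859 CPM. No sum of any other class reached 679 CPM, the highest being 572 CPM in fibroblast-like nuclei of Nubian replicate 1. The contrasts were 3.01 ± 0.14 (adjusted p = 7.52e-23) and 2.78 ± 0.14 (6.73e-22). Smooth muscle-like nuclei followed with 492, 317, 556 and 384 CPM (1.67 ± 0.15, 1.71e-12), then fibroblast-like (1.24 ± 0.21, 9.3e-06) and macrophage-like nuclei (1.07 ± 0.17, 3.61e-07). The fibroblast call was lost without Nubian replicate 1 (0.65, 0.20).

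Where NRP2 was low, it was low in several unrelated classes. Mural granulosa-like nuclei had 35.6, 63.0 and 50.1 CPM (-1.35 ± 0.23, adjusted p = 5.37e-06), although the marker-based classing gave -0.12 (0.74). T or natural killer-like nuclei had 20.7, 24.1, 63.1 and 56.7 CPM, and epithelial-like nuclei 15.7, 23.7, 37.2 and 24.8 CPM. The contrasts of these 2 classes were -1.85 ± 0.22 (adjusted p = 1.29e-09) and -2.63 ± 0.29 (2.52e-10). Multiciliated-like nuclei were lower as well (-2.58 ± 0.40, 1.18e-06). Smaller changes in pericyte-like (-0.83 ± 0.25, 0.0197), cycling granulosa-like (-0.54 ± 0.19, 0.0156) and theca-like nuclei (0.55 ± 0.19, 0.0368) were each lost without Du'an replicate 2 (-0.73, 0.092, then -0.49, 0.066, and 0.34, 0.37) and without Nubian replicate 1 (-0.62, 0.18, then -0.36, 0.18, and 0.55, 0.078). The pericyte call was lost without Du'an replicate 1 too (-0.93, 0.055), as was the theca call (0.52, 0.12), which also ended without Nubian replicate 2 (0.55, 0.10). Of the alternatives in which they could be tested, the theca call was kept in only 5 of 13. The pericyte call was kept in 8 of 13 and the cycling call in 10 of 15. In all, 12 of the 14 class contrasts of NRP2 were called, against 4 each for FLT1 and VEGFB and 33.7% over all genes. Over all deposited nuclei NRP2 held 59002 UMIs, FLT1 3911 and VEGFB 5427. Such counts of calls therefore also depend on how precisely each gene was measured.

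The share of each gene's UMIs per class depends on both the level and the number of nuclei. Lymphatic endothelial-like nuclei held 82.8 to 91.4% of FLT4 UMIs in the 4 goats. Blood endothelial-like nuclei held 43.1 to 60.3% of FLT1 and 31.2 to 69.3% of KDR UMIs, and lymphatic endothelial-like nuclei a further 16.3 to 37.7% of KDR. Ligand UMIs lay mostly outside endothelium: cumulus granulosa-like nuclei held 23.0 to 42.3% of VEGFA. Mural granulosa-like nuclei held 0 to 56.6% of VEGFC, the 0 being the goat in which the class was not found. Progenitor granulosa-like nuclei held 17.1 to 48.8% of NRP2.

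**Figure D2:**
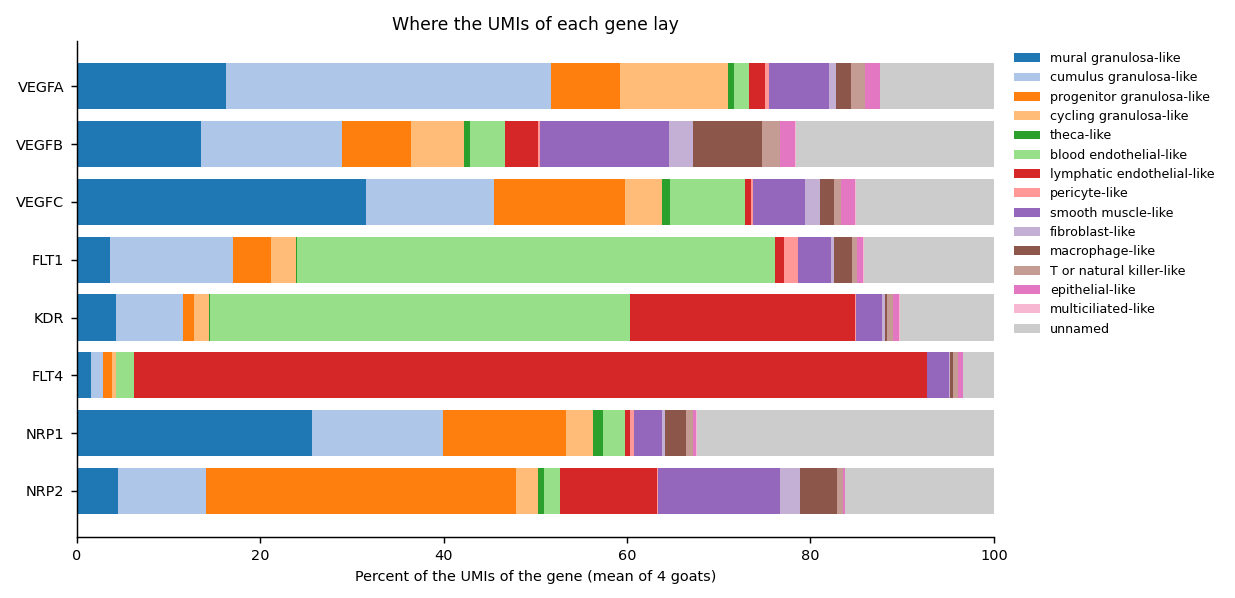
Share of the UMIs of each gene (x axis, percent, mean of the 4 goats) that fell in each class, as stacked bars with 1 bar per gene. FLT4 UMIs are nearly all lymphatic (mean 86.4%), FLT1 and KDR UMIs mostly endothelial, and NRP1 has a mean of 32.4% in nuclei without a class name.

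The share of nuclei with at least 1 UMI was taken after every nucleus was thinned to 1000 UMIs, a depth that 2542 of 14156 Du'an and 3960 of 20562 Nubian nuclei of named classes did not reach. T or natural killer-like nuclei, which are not known for VEGF receptors on most cells, served as the background. This reason covers the receptors and not the neuropilins or ligands. The class was called lower for each gene tested between classes, so shares above it show only a distance from a low class. Its median depth of 2231 UMIs was close to the 1963 and 1986 UMIs of the blood and lymphatic endothelial classes. KDR was seen in a mean of 34.1% (range 29.0 to 41.7%) of blood and 23.6% (20.8 to 25.7%) of lymphatic endothelial-like nuclei, against 0.62% in the background class. FLT1 was seen in 21.8% (18.4 to 25.3%) of blood endothelial-like nuclei against 0.15%, and FLT4 in 42.1% (36.3 to 45.9%) of lymphatic endothelial-like nuclei against 0.38%. Without thinning the 4 shares were 49.9% and 40.2% for KDR, 37.4% for FLT1 and 60.3% for FLT4.

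For the neuropilins the background was higher. NRP2 was seen in 48.8% of progenitor granulosa-like and 41.3% of lymphatic endothelial-like nuclei at 1000 UMIs, against 4.39% of T or natural killer-like nuclei, and NRP1 in 44.8% of theca-like nuclei against 6.83%. Ligands were seen rarely: VEGFA in 5.78% of cumulus and 6.0% of cycling granulosa-like nuclei against 0.81%, and VEGFC in 14.5% of mural granulosa-like nuclei against 1.26%. Unthinned shares were 81.0% and 56.9% for NRP2, 67.5% for NRP1, 14.5% and 20.6% for VEGFA and 39.8% for VEGFC.

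The comparison of blood with lymphatic endothelium asks which receptors and co-receptors each vessel type carries, and the same 4 goats gave both classes. In this fit 10806 genes were tested, and 5 of the 8 genes were called, 3 higher in blood and 2 higher in lymphatic endothelial-like nuclei, against 24.7% of all genes. All 5 calls were kept under every alternative run, with each goat left out in turn among them. FLT1 was higher in blood by 5.41 ± 0.23 on the log2 scale (adjusted p = 6.31e-08), and its blood and lymphatic values, given above, did not overlap. FLT4 was lower in blood, with a log2 change of -5.87 ± 0.26 (adjusted p = 6.92e-08).

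The neuropilins split between the vessel types. NRP1 was higher in blood in 4 of 4 goats, by 1.91 ± 0.20 (adjusted p = 3.28e-05). NRP2 went the other way, with 127, 104, 143 and 102 CPM in blood against 703, 679, 1074 and 859 CPM in lymphatic endothelial-like nuclei, a log2 change of -2.83 ± 0.15 (adjusted p = 2.59e-07). The ligand VEGFC was higher in blood by 2.71 ± 0.36 (adjusted p = 0.000194). KDR was higher in blood in 4 of 4 goats, yet its log2 change of 0.50 ± 0.18 missed the threshold (adjusted p = 0.0751) and passed it when no filter on low counts was used (0.52, 0.0128). VEGFA (-0.37 ± 0.31, 0.457) and VEGFB (-0.22 ± 0.23, 0.589) were not called.

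**Figure D3:**
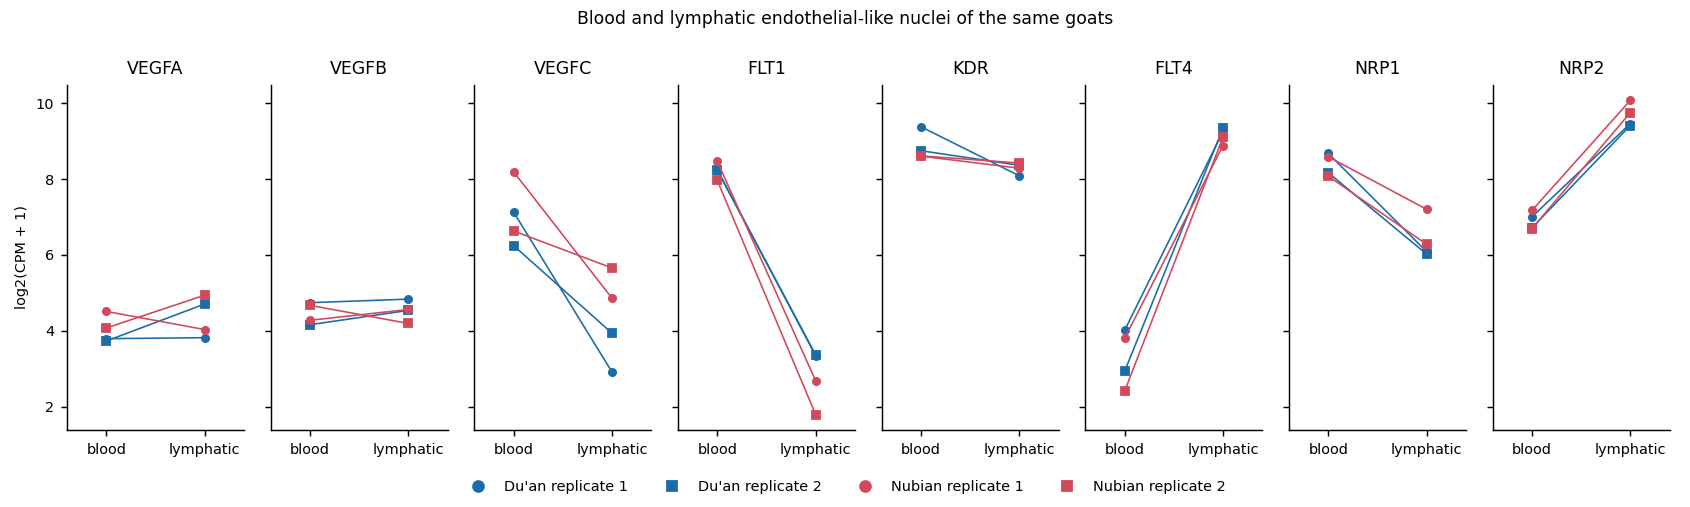
Levels of the 8 genes as log2(CPM + 1) (y axis) in blood and lymphatic endothelial-like nuclei, with a line joining the 2 classes of each goat. FLT1, NRP1 and VEGFC fall from blood to lymphatic in 4 of 4 goats, and FLT4 and NRP2 rise in 4 of 4. KDR is lower in lymphatic nuclei of each goat, most so in Du'an replicate 1 (663.5 against 271 CPM).

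Receptors were also counted in the same nucleus, without thinning. Of blood endothelial-like nuclei, 20.5 to 25.7% held UMIs of both FLT1 and KDR and 32.0 to 40.5% held neither, and 22.6 to 28.7% held both KDR and NRP1. Of lymphatic endothelial-like nuclei, 20.7 to 36.5% held both KDR and FLT4, and 31.8 to 47.0% both FLT4 and NRP2. FLT4 and KDR were seen together in 0.56 to 2.69% of blood endothelial-like nuclei. A nucleus without a UMI may still carry the RNA at this depth.

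The study divides granulosa cells, which surround the oocyte, into mural, cumulus and progenitor subtypes, and each was tested against the mean of the other 2 over 13251 genes. Of the 24 contrasts of the 8 genes, 7 were called, 3 higher and 4 lower, against 26.1% of all contrasts over genes. NRP2 separated the progenitor-like nuclei: it was higher there by 3.53 ± 0.18 (adjusted p = 2.61e-06), and lower in mural (-2.45 ± 0.23, 0.000136) and cumulus granulosa-like nuclei (-1.08 ± 0.19, 0.00407). Progenitor nuclei were above cumulus nuclei in 4 of 4 goats and above mural nuclei in 3 of 3. In progenitor granulosa-like nuclei the 9 granulosa markers summed to 1538 to 2499 CPM. Mural nuclei had 5281 to 9659 CPM and cumulus nuclei 5862 to 7991 CPM. Pericyte-like (1150 to 1992 CPM) and smooth muscle-like nuclei (1283 to 1841 CPM) overlapped the progenitor range. The 6 progenitor markers summed to 3348 to 4136 CPM in progenitor and 2427 to 3086 CPM in fibroblast-like nuclei. The progenitor class may thus hold other cells, whose part in its levels was not tested.

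VEGFA ran against NRP2 in progenitor and cumulus granulosa-like nuclei, while in mural nuclei it was not called (0.20 ± 0.26, adjusted p = 0.626). It was lower in progenitor granulosa-like nuclei (-1.18 ± 0.25, adjusted p = 0.00654) and higher in cumulus granulosa-like nuclei (0.99 ± 0.23, 0.0153), with cumulus above progenitor in 4 of 4 goats. The progenitor call was lost when the goat block was dropped (-1.30, 0.083). The cumulus call was lost without the block (0.98, 0.19), at the clustering resolution of 0.4 (1.05, 0.054), without Du'an replicate 1 (0.83, 0.062) and without Nubian replicate 1 (1.00, 0.082). VEGFC was higher in mural (1.44 ± 0.34, 0.0145) and lower in cumulus granulosa-like nuclei (-1.22 ± 0.35, 0.0390). Without Nubian replicate 1 the VEGFC calls were lost in mural (1.38, 0.078) and in cumulus granulosa-like nuclei (-1.43, 0.086). The cumulus call also ended without Du'an replicate 2 (-0.90, 0.12) and without Nubian replicate 2 (-1.10, 0.12), and was kept in 8 of 13 alternatives. VEGFB, NRP1 and the 3 receptors were not called in any subtype; FLT1 had its largest change in mural nuclei (-1.45 ± 0.59, 0.105).

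Within the subtypes VEGFA was uneven. Among the cumulus granulosa-like nuclei, subcluster 4 had 98.4, 190, 245 and 146 CPM, subcluster 3 had 12.6, 22.1 and 24.5 CPM in the 3 goats with at least 20 nuclei, and subcluster 5 had 13, 9.26, 22.8 and 0 CPM. In each goat subcluster 4 was thus above the others. NRP1 was 97.8, 86.9, 136 and 245 CPM in subcluster 4, below the 448, 445 and 734 CPM of subcluster 3 in each of the 3 goats. Subcluster 5 had 295, 389, 363 and 167 CPM of NRP1, above subcluster 4 in 3 goats and below it in Nubian replicate 2. The goats filled these subclusters unevenly, since 1931 of the 2115 nuclei of subcluster 3 came from Du'an replicate 2 and 1799 of the 1893 of subcluster 5 from Nubian replicate 1, so the cumulus level of a goat depends on its mix. The mural subclusters were nearly all from 1 goat each: NRP1 was 990 CPM in subcluster 1 of Nubian replicate 1, 607 CPM in subcluster 6 of Du'an replicate 2 and 97.4 CPM in subcluster 9 of Nubian replicate 2. VEGFA in the same 3 was 19.0, 31.3 and 104.5 CPM. Whether a mural difference belongs to the goat or to the kind of nuclei it holds cannot be told apart.

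**Figure D4:**
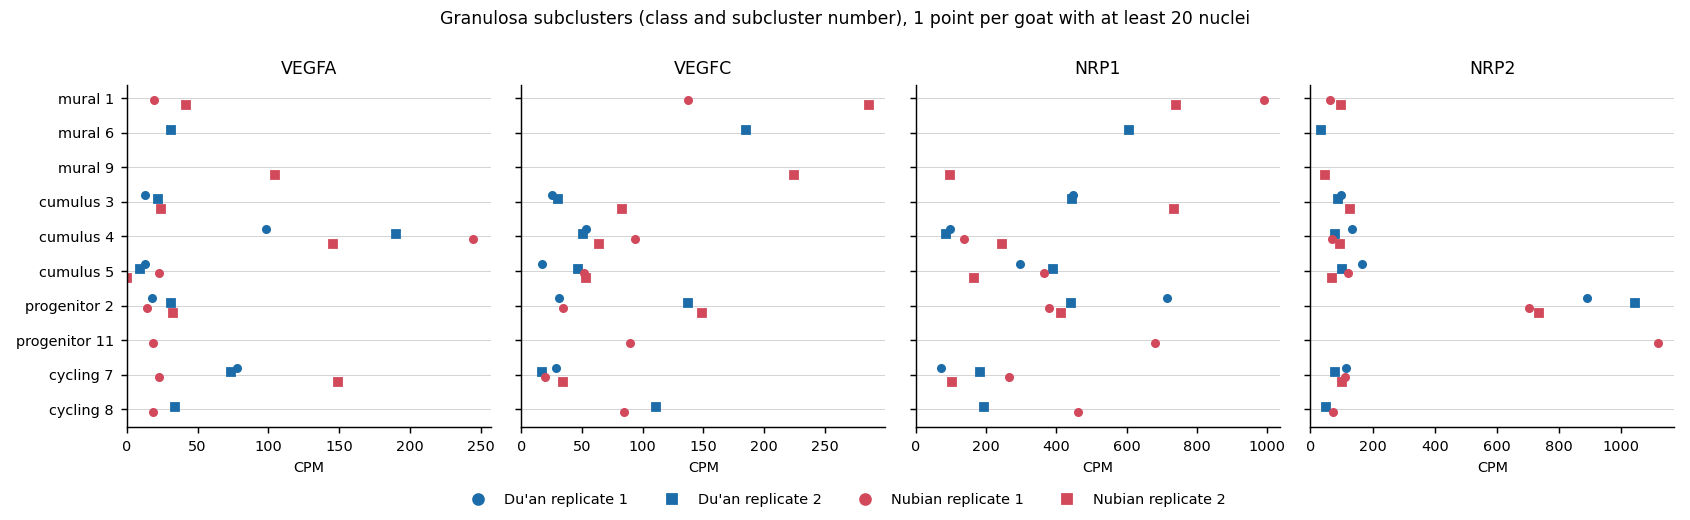
Levels in CPM (x axis, with its own range in each panel) of VEGFA, VEGFC, NRP1 and NRP2 in the granulosa subclusters (y axis, class and subcluster number), with 1 point per goat with at least 20 nuclei. Of the cumulus subclusters VEGFA is highest in subcluster 4, and NRP2 is highest in the progenitor subclusters 2 and 11, while NRP1 ranges from 97.4 to 990 CPM among the mural subclusters.

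The comparison of breeds asks whether the polytocous and monotocous goats differ within a cell class, and 11 classes had at least 2 goats of each breed. Mural granulosa-like, fibroblast-like and multiciliated-like nuclei were too few in 1 or more goats. Of the 88 combinations of gene and class, 62 passed the filter on low counts, and none was called by edgeR, nor was any by DESeq2. Over all genes edgeR called 0 of 95975 (0%) and DESeq2 313, and 4.04% had an unadjusted p under 0.05, against 2 of the 62. Nubian minus Du'an log2 changes ran from -1.25 (VEGFA in epithelial-like nuclei) to 1.71 (VEGFC in lymphatic endothelial-like nuclei).

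The 2 values with an unadjusted p under 0.05 were these. NRP2 in T or natural killer-like nuclei was 20.7 and 24.1 CPM in the Du'an and 63.1 and 56.7 CPM in the Nubian goats, without overlap (1.43 ± 0.35, adjusted p = 0.178). Of all 8965 genes tested in this class, 1153 had an unadjusted p under 0.05. The class joined clusters 7 and 22, and cluster 22, with GNLY and CCL5 among its leading genes, differed between goats. It gave 3, 45, 52 and 110 of the 120, 1609, 419 and 326 nuclei of the class. The part of this mix in the NRP2 values was not tested. VEGFC in lymphatic endothelial-like nuclei was 6.57 and 14.4 against 28.1 and 49.5 CPM (1.71 ± 0.52, adjusted p = 0.999), from 5, 20, 62 and 20 UMIs. VEGFC had a positive log2 change in each of the 10 classes in which it was tested, from 0.18 in progenitor granulosa-like to 1.71 in lymphatic endothelial-like nuclei, with no call among them. These 10 values share the same 4 libraries and are not independent. Over goats the 9 mural granulosa markers summed to 171 to 2491 CPM in lymphatic and 227 to 2602 CPM in blood endothelial-like nuclei. In mural granulosa-like nuclei, a class high in VEGFC, they summed to 15860 to 16880 CPM. The part of mural granulosa RNA in the VEGFC levels of other classes was not tested.

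The receptors in their own classes were not called between breeds. FLT1 in blood endothelial-like nuclei changed by -0.01 ± 0.25 (adjusted p = 0.999), FLT4 in lymphatic endothelial-like nuclei by -0.30 ± 0.23 (0.999), and KDR by -0.49 ± 0.28 in blood (0.999) and 0.13 ± 0.23 in lymphatic endothelial-like nuclei (0.999). With 2 goats a breed such values do not show that the breeds are alike. Calls appeared for 3 values when Nubian replicate 2 was left out, which leaves 1 Nubian goat: VEGFA in cycling granulosa-like (-1.78, 0.025), VEGFC in cycling granulosa-like (1.5, 0.032) and VEGFC in fibroblast-like nuclei (-2.29, 0.0049). In that fit 590 of 105447 values over all genes were called. Cycling nuclei of the goats came from different subclusters, with subcluster 8 mostly from Nubian replicate 1 (775 of 823 nuclei). Fibroblast-like nuclei came from different clusters, with cluster 18 mostly from Nubian replicate 1 (493 of 518 nuclei).

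**Figure D5:**
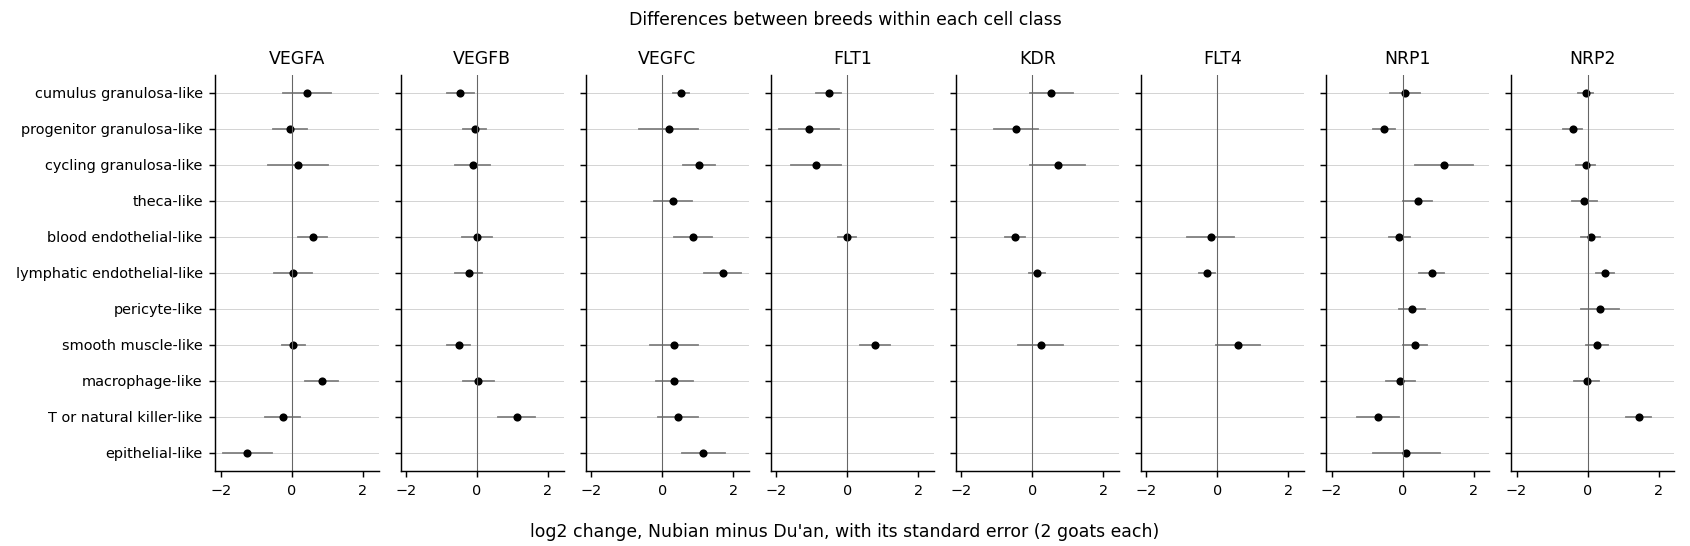
Log2 changes, Nubian minus Du'an (x axis), of each gene in the classes where it passed the filter (y axis). Lines show 1 approximate standard error, taken from the F statistic of the edgeR test of 2 goats against 2. No point was called, and VEGFC lies right of 0 in all 10 of its classes.

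Other genes of the pathway were read from 5 lists of 59 genes. The list of other ligands and ligand processing held PGF and VEGFD, ligands of FLT1 and FLT4. Class means were at most 4.70 CPM for PGF. For VEGFD they were at most 6.28 CPM outside fibroblast-like nuclei, where VEGFD was 43.3 ± 62.7 CPM. It also held CCBE1 and ADAMTS3, an adaptor and a protease that together activate VEGFC. CCBE1 was highest in theca-like nuclei (894 ± 174 CPM; log2 change 4.04 ± 0.30, adjusted p = 4.31e-15), where 2 of the 3 genes of the list that could be tested were called higher against 10.5% of all genes. It was also higher in progenitor granulosa-like nuclei (3.76 ± 0.29, 8.74e-15), where it ranged from 144 to 924 CPM over goats. ADAMTS3 was highest in mural granulosa-like nuclei (729 ± 273 CPM, n = 3; 2.79 ± 0.25, 9.57e-13), a class that was low in CCBE1 (12.7 ± 4.06 CPM; -2.12 ± 0.52, 0.000836).

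The list of co-receptors and semaphorin partners held 10 plexins and class 3 semaphorins, many of which act together with neuropilins. Against the other classes 8 could be tested. In lymphatic endothelial-like nuclei 5 of the 8 were called higher and 2 lower, with a median log2 change of 2.99 against -0.07 over all genes. Of all genes 28.8% were called there, 16.5% higher. In blood endothelial-like nuclei 4 were higher and 4 lower, against 32.1% of all genes called in either direction. Between the vessel types 4 of 10 were lower in blood and none higher, beside 24.7% of all genes called in either direction. SEMA3A, a ligand of NRP1, had 33.4, 21.5, 35.5 and 10.1 CPM in blood and 1126, 791.5, 946 and 911 CPM in lymphatic endothelial-like nuclei (-5.26 ± 0.23, adjusted p = 6.23e-08). SEMA3D had 18.2, 9.23, 10.9 and 4.33 CPM in blood against 700.1, 563, 699 and 619 CPM (-5.93 ± 0.23, 4.56e-08). SEMA3E, with 3.79, 0, 0 and 0 CPM in blood against 44.7, 36.6, 19.5 and 24.8 CPM, and the plexin PLXNA4 (-1.67 ± 0.19, 7.35e-05) were the others.

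Of the 18 signal carriers behind the receptors, 17 passed the filter between the vessel types, with 2 higher and 5 lower in blood, beside 24.7% of all genes in either direction, and a median of -0.17 against 0.02 over all genes. NOS3, the nitric oxide synthase of endothelium, had 58.4, 62.0, 81.2 and 75.1 CPM in blood and 2.63, 9.34, 6.34 and 17.3 CPM in lymphatic endothelial-like nuclei (3.1 ± 0.29, adjusted p = 1.44e-05). PLCG1, the phospholipase that KDR activates, was lower in blood (-0.88 ± 0.15, 0.00106). Against all other classes 15 could be tested. Of these, 6 were higher and 3 lower in blood, beside 32.1% of all genes in either direction, and 7 higher and 1 lower in lymphatic endothelial-like nuclei, beside 28.8%. PLCG1 was among them in each, at 1.49 ± 0.15 (6.74e-12) and 2.44 ± 0.14 (2.77e-20).

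Genes that respond to the receptors in endothelium were higher in both vessel classes, 5 of the 10 tested in blood and 8 of 10 in lymphatic endothelial-like nuclei, beside 19.0% and 16.5% of all genes, and none of the 10 was lower. Their median log2 changes were 0.82 and 1.82, against -0.04 and -0.07 over all genes. DLL4, a Notch ligand of vessel tips, was higher in blood than in lymphatic endothelial-like nuclei (1.24 ± 0.23, adjusted p = 0.00182), with 50.1, 32.3, 45.0 and 39.0 CPM against 17.1, 18.0, 14.1 and 19.8 CPM. ANGPT2, which loosens vessels through the TIE2 receptor, and the guidance receptor UNC5B were lower in blood (-2.22 ± 0.35, 0.000631, and -2.31 ± 0.17, 1.89e-06). In granulosa-like nuclei ANGPT2 was higher in the cumulus class than in the other subtypes (3.26 ± 0.26, 0.00012). The list was not raised in endothelium alone. In progenitor granulosa-like nuclei UNC5B, EGR3, SPRED1, VASH1, SPRED2, DUSP5 and RCAN1 were higher than in the other subtypes. ANGPT2 was lower there, and NR4A1 and KLF2 were not called, beside 18.3% of all genes higher and 14.5% lower.

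In the list of oxygen sensing and hypoxia-responsive genes, whose best-known regulators HIF1A and EPAS1 also act on VEGFA, 2 of 13 were higher and 2 lower in blood than in lymphatic endothelial-like nuclei, a share close to the 24.7% of all genes. EPAS1 had 902, 986.5, 622 and 746 CPM in blood against 90.6, 127, 74.3 and 144 CPM (2.89 ± 0.17, adjusted p = 4.58e-07). Among granulosa subtypes 6 of 14 were higher and 1 lower in progenitor nuclei, against 18.3% and 14.5% of all genes. HIF1A was the lower one (-1.99 ± 0.37, 0.00328). The 6 held EPAS1 (2.39 ± 0.21, 4.6e-05), the glucose carrier SLC2A1 (1.83 ± 0.21, 0.000208), ADM, the peptide adrenomedullin (2.02 ± 0.22, 0.000171), and NDRG1 (3.58 ± 0.34, 7.6e-05), in the subtype in which VEGFA was lowest. HIF1A was higher in mural (2.41 ± 0.24, 3.38e-11) and cumulus granulosa-like nuclei (2.04 ± 0.23, 3.39e-10) than in the mean of the other classes. Between breeds no gene of the 5 lists was called in any class.

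Likeness between genes was described over the 52 class sums as Pearson's r of log2(CPM + 1), among 9363 genes with a mean of at least 10 CPM. Sums of 1 goat share a library, and sums of different classes differ in depth. The genes most like KDR were CXHXorf36 (r = 0.865), ADGRF5 (0.841) and PTPRB (0.827), the last 2 known from endothelium. FLT1 was most like LOC106502978 (0.816), BMPER (0.692) and LIFR (0.677), and FLT4 most like KIRREL3 (0.844), SCN3A (0.826) and FAM19A5 (0.821). NRP2 followed DAB2 (0.806), CEP170 (0.781) and LOC102191770 (0.768), and NRP1 LHFPL2 (0.647), INPPL1 (0.632) and ITPR1 (0.627). For VEGFA these were DKC1 (0.708), DROSHA (0.706) and MSH3 (0.702), for VEGFB ARAP1 (0.747), ASPSCR1 (0.709) and DIRC2 (0.691), and for VEGFC PLPP3 (0.640), CD2AP (0.626) and BNC2 (0.623). None of the 8 genes was among the 3 nearest of another, and the value for KDR with FLT4 was 0.665 and for FLT1 with KDR 0.496.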

How the data were processed

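Single-nucleus libraries (10x 3′ chemistry) from the ovaries of 4 goats, 2 per breed, were analysed. The authors deposited raw UMI counts for each gene in each nucleus, without normalization, and the submitters' processing notes name Cell Ranger 5.0.0. Their tables of marker comparisons of granulosa subtypes and follicle stages (fold changes, p-values and shares of cells) were not used. Library totals and nuclei are given in the report; precision in each sum is limited by the UMIs printed beside it, and floors (3 UMIs) cover counting error alone.

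Nuclei beyond 2 SD of a library's mean or above 20% mitochondrial UMIs were removed (2355 and 1110). The doublet caller marked 151 nuclei, all in Du'an replicate 2 and 0 in the other 3 libraries, and so did not work; removing the top 10% of doublet scores was an alternative. Nuclei were clustered with scanpy 1.11.5 and leidenalg 0.10.2 (2000 variable genes, 30 components, 20 neighbours, resolution 0.8, with 0.4 and 1.2 as alternatives). A cluster took a name from at least 3 markers at 10 CPM or more whose log2 fold was at least 1, limits chosen once the data had been seen. Granulosa-like clusters were divided further at resolution 0.5.

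UMIs were summed per goat and class (at least 20 nuclei) and tested with edgeR 4.0.16 in R 4.3.3 (TMM, quasi-likelihood, Benjamini-Hochberg; called at an adjusted p under 0.05). A gene without a UMI in a class or goat of a contrast against several classes was left untested, a rule set after the data were seen. Contrasts between classes had the goat as a block, and contrasts between breeds had none. DESeq2 1.42.0, other size factors, no filter on low counts, at least 50 nuclei, leaving out each goat and a marker gate (each nucleus takes the list with most UMIs, with no tie) were alternatives. The scripts were tested on simulated data. The 8 genes, the markers and the 5 pathway lists were chosen with earlier results of these data known. All 8 genes are described in every class, together with the 3 most alike genes of each and up to 4 genes per list and comparison by smallest adjusted p; HIF1A, ADAMTS3, CCBE1, PGF and VEGFD are also given by level. Other named pathway genes were chosen after their values were seen.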

Additional observations from a re-analysis of the deposited data

Results flagged for a closer look

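In 64 groups of 4 goats, 6 held a goat farther from the rest than Dixon's test allows at the 95% level. For values with a normal spread chance gives about 1 group in 20, but several of these groups held few UMIs. The rate over all genes was not taken, so the 6 are not read as an excess. KDR in blood endothelial-like nuclei of Du'an replicate 1 was 663.5 CPM, with the other goats at 388 to 428 CPM. KDR in epithelial-like nuclei of the same goat was 31.3 CPM, from 2 UMIs. NRP1 in progenitor granulosa-like nuclei of Du'an replicate 1 was 714.6 CPM against 414 to 441 CPM, and VEGFC in theca-like nuclei of this goat was 38.1 CPM (4 UMIs) against 110 to 121 CPM. NRP1 in lymphatic endothelial-like nuclei of Nubian replicate 1 was 146.4 CPM against 63.9 to 76.7 CPM. KDR in theca-like nuclei of Nubian replicate 1 was 64.9 CPM (13 UMIs), with 0 UMIs in the other 3 goats.

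High levels also appeared in nuclei that took no class name and entered no comparison. NRP1 was 912.6 CPM over all goats in cluster 4 (4262 nuclei), with 716 to 1016 CPM in the single goats, and NRP2 was 248 CPM there. FLT1 was 84.4 CPM in cluster 16 (595 nuclei, led by GALNT14, SGCZ and WNT5A), with 79.0 to 168 CPM in the single goats from 71 UMIs in all. VEGFB was 55.8 CPM in cluster 13 (1029 nuclei, with TFF3 and WFDC2 among its leading genes), from 87 UMIs. FLT4 was 32.6 CPM in cluster 12 (1176 nuclei, led by CCL21, MDK and RAMP2, median 775 UMIs), from 38 UMIs. Its single goats had 24.5 to 102 CPM. KDR was 66.0 CPM there, with 47.0 to 355 CPM in the single goats, and FLT1 24.0 CPM, with 11.5 to 254 CPM from 28 UMIs. The values over all goats lean on Nubian replicate 1, which held 1018 of the nuclei.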

How the results depend on the processing

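The called contrasts, all values between the vessel types and the 2 breed values with an unadjusted p under 0.05 were followed through the alternatives: 761 values kept direction and side of the threshold, 86 lost the call, 1 gained it and 2 reversed. Contrasts not called before also gained calls, 0 to 12 in an alternative between classes, 0 to 2 among granulosa subtypes and 0 to 3 between breeds. VEGFA in cumulus granulosa-like nuclei became -0.27 with the marker gate, and VEGFC in fibroblast-like nuclei -0.32 with at least 50 nuclei per sum; the second left 1 goat in the class, and for the first the cause was not tested. The marker gate gave 38 calls between classes, of which 27 were shared with the 44, while 17 of the 44 were lost (8 because they were not tested) and 11 were added. Leaving out each goat in turn gave 26 to 41 calls between classes, 5 in each case between the vessel types, 4 to 7 among granulosa subtypes and 0 to 3 between breeds. The 26 came without Du'an replicate 2, where 18 of the 44 were lost, 5 because they were not tested. The 4 came without Nubian replicate 1 and the 3 without Nubian replicate 2, where the lone Nubian goat is assumed to vary like the others. With no filter on low counts 1 breed value was called, NRP1 in cycling granulosa-like nuclei (1.18, adjusted p = 0.024), with 1748 of 189153 called over all genes.

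The replicate numbers of the breeds did not pair the goats: correlations of the deviations of same-numbered goats ran from -0.24 in cycling granulosa-like to 0.18 in epithelial-like nuclei. With the replicate block 0 breed values of the 8 genes were called, as without it, and over all genes 6 against 0. With the numbers crossed, chosen after the data were seen, 0 and 249 were called. Dropping the goat block (no replicate block) gave 36 calls between classes, 5 between the vessel types and 5 among granulosa subtypes. Another alternative chosen after the data were seen, joining cluster 4 to the progenitor class, gave 42 and 6. Leaving out the classes with no UMI of FLT4, also chosen then, gave 48, of which 36 were shared with the 44. Of the shares of nuclei, 48 moved by more than 1 SD when thinned to another depth or not at all and 24 did not, and 48 shares of UMIs did not move under their alternatives.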

Other observations

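At the finer clustering resolution of 1.2 the blood endothelial-like nuclei fell into a pair of clusters, present in every goat, that differed in the VEGF genes. The larger, cluster 17 (371, 448, 404 and 124 nuclei), was led by RBFOX3, CA4 and ABCG2, with SELP and VWF among its 10 leading genes. Cluster 23 (113, 139, 161 and 57 nuclei) was led by BMX, GJA5 and DKK2, of which GJA5, a gap junction protein, is known from arteries. KDR was 960, 568.5, 448 and 624 CPM in cluster 17 and 197, 134, 318 and 113 CPM in cluster 23, without overlap. NRP2 was likewise higher in cluster 17, with 191, 140, 218 and 168 CPM against 27.3, 32.7, 55.7 and 25.1 CPM. VEGFC was the reverse, with 17.4, 27.5, 130 and 37.3 CPM in cluster 17 and 330, 163, 475 and 169 CPM in cluster 23, also without overlap. The VEGFC level of blood endothelial-like nuclei therefore came mostly from the smaller cluster.

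FLT1 was 368, 344, 294 and 293 CPM in cluster 17 and 191, 208, 419 and 194 CPM in cluster 23, higher in cluster 17 in 3 of 4 goats. NRP1 was 458, 378, 401 and 408 CPM against 328, 129, 363 and 103 CPM. These values are descriptions with no test, since the clusters were made from the same nuclei, and the clusters differed in depth, with median counts of 1565 and 3776 UMIs.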
